A study of Homo sapiens with 9 samples.

Results

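The genes encoded by mitochondrial DNA were taken as every entry of the expression table whose symbol starts with MT-. There were 37 of them among 62703 genes: 13 mRNA genes, 2 rRNA genes and 22 tRNA genes. Human cells labelled HepG2, a line from a liver carcinoma, were studied in 3 groups of 3 libraries. All groups received palmitic acid, a saturated fatty acid, at 750 µM for 24 h, and the PA group received this alone. PA-Cur cells were then given curcumin, the yellow pigment of turmeric, at 20 µM for 12 h. PA-Cur-Cu cells received, for those 12 h, the same curcumin dose together with CuCl2 at 5 µM. Every group was fatty acid loaded, so no comparison is with untreated cells, and no group received copper alone. The labels do not say whether PA cells were kept for the later 12 h, so that time and curcumin cannot be told apart.

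Mitochondrial DNA is a small circle that is transcribed from both of its strands into long RNAs. Its tRNA genes lie between most of the other genes, and cutting the tRNAs out releases the rRNAs and mRNAs. The mRNAs encode core subunits of complexes I, III and IV of the respiratory chain and of ATP synthase, also called complex V. The other subunits, and all the proteins that copy, transcribe and process mitochondrial DNA, are encoded in the nucleus. The rRNAs belong to the mitochondrial ribosome.

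The MT-ATP8 and MT-ND4L frames are printed here because these mRNAs varied most between libraries and because each shares bases with the next gene on the same bicistronic mRNA. Both are plus strand sequences of chrM on GRCh38, from GENCODE transcripts, with the bases shared with the next gene in capitals. MT-ATP8 lies at chrM:8366-8572 and shares its last 46 bases, chrM:8527-8572, with MT-ATP6. MT-ND4L lies at chrM:10470-10766 and shares its last 7 bases, chrM:10760-10766, with MT-ND4.
MT-ATP8: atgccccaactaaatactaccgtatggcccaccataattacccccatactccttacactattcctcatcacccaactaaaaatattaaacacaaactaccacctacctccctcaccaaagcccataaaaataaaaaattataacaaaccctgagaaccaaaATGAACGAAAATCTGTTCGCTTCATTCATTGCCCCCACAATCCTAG
MT-ND4L: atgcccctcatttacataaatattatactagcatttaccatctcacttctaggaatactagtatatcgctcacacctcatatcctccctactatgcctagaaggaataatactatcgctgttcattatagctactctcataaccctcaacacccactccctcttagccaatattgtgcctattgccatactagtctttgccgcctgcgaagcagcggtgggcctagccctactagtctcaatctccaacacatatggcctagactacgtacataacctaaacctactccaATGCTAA
A read that falls on the capitals can be counted for either gene, and how the authors' tools divided such reads was not tested. The 207 bases of MT-ATP8 and the 297 of MT-ND4L are the shortest mRNA genes of the set, and the next shortest is MT-ND3 with 346 bases. The longest is MT-ND5 with 1812. Of the 13 mRNA genes, 6 end 1 or 2 bases into a codon, namely MT-ND3, MT-CO3, MT-ND2, MT-CYB and MT-ND4 with 1 base and MT-ND1 with 2. In such genes the polyadenylation of the RNA is known to complete the stop codon.

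Levels are in TPM, a transcript abundance unit on which each library has the same total and each gene is scaled by a length. The length that the authors' tools used for each gene is not given in the sources used here. Its part in the levels of the shortest genes was not tested. The 22 tRNA genes, of 59 to 75 bases, were listed at 0 in every library. The libraries were made with a kit for polyadenylated RNA, and its part in that was not tested. The 13 mRNAs and 2 rRNAs were above 0 in every library and all passed the filter of a mean of 1 TPM, so 15 of the 37 genes were measured. These were among the most abundant RNAs of the cells: 6 of the 15 stood among the 10 genes with the highest mean TPM, 10 among the first 20, and all 15 among the first 200.

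As for the identity of the cells, all 10 of the 10 hepatocyte marker genes examined had a mean under 1 TPM. Of these, ALB, APOA2, APOB, FGB and TTR, which encode plasma proteins made by liver, were listed at 0 in all libraries. The hepatocyte markers thus do not bear out the label HepG2, and the identity of the cells was not tested further. The 6 epithelial markers examined were keratin genes with EPCAM and CDH1, and 3 of the 6 had a mean under 1 TPM. Their sum was 3314 to 3812 TPM in PA, 2505 to 2865 in PA-Cur and 2637 to 2715 in PA-Cur-Cu. Fibroblast markers summed to at most 15.8 TPM, leukocyte markers to at most 10.98 and endothelial markers to at most 1.42. The part of the epithelial genes in any difference below was not tested. In bulk RNA, fewer mitochondria per cell, fewer copies of the RNA and more RNA of other genes cannot be told apart.

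The order of the mRNAs was the same in all 9 libraries at places 3, 4 and 5 and at the last place, and varied elsewhere. MT-CO2, a subunit of cytochrome c oxidase that carries one of its copper centres, and MT-ATP8, a small subunit of ATP synthase, held the first 2 places in all 9 libraries and changed places between them. MT-CO3, another core subunit of cytochrome c oxidase, held place 3 in all 9, MT-CO1, its catalytic subunit, which carries the other copper centre, held place 4, and MT-ATP6, the subunit of the proton channel of ATP synthase, held place 5. MT-ND5, a proton-pumping subunit of complex I, was last in all 9. Between these ends, MT-ND4, MT-ND3, MT-ND4L, MT-ND1 and MT-ND2 exchanged places from library to library, as did MT-ND6 and MT-CYB. The 9-library means of MT-ND6 and MT-CYB, 2558 and 2548 TPM, were closer together than the spread of either.

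**Figure D1:**
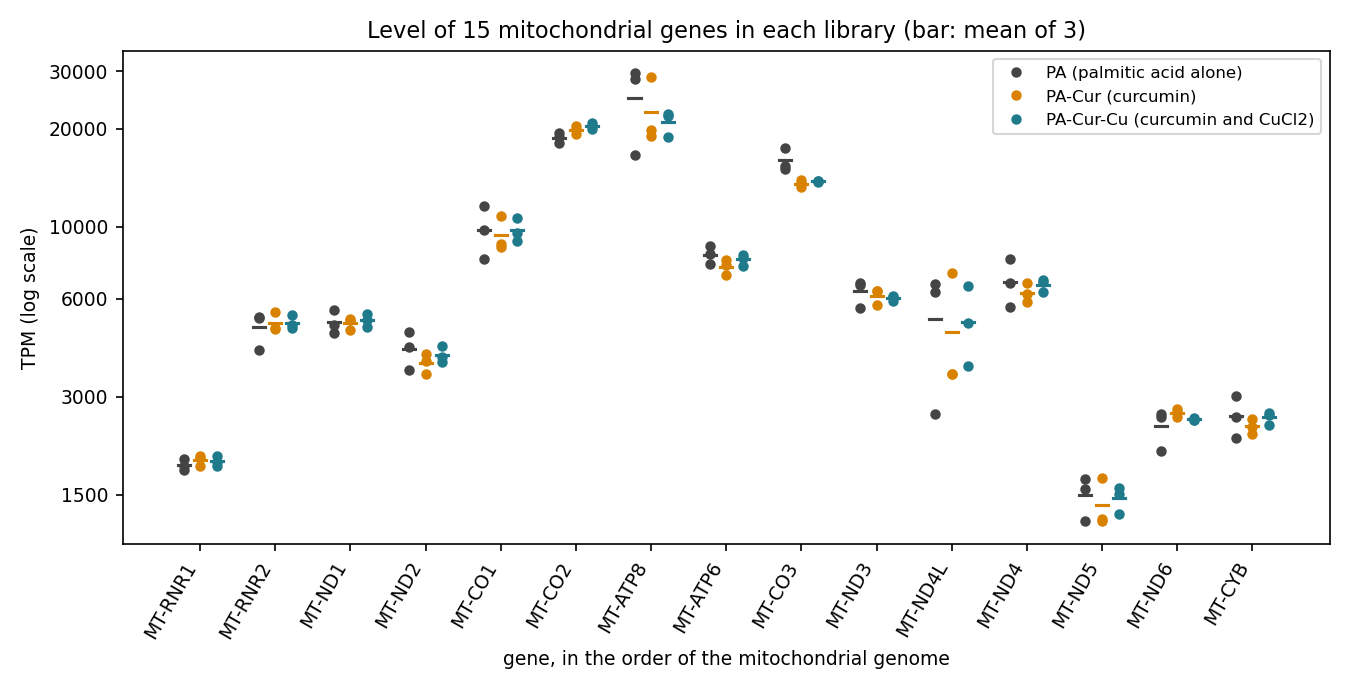
TPM on a log axis for the 15 measured mitochondrial genes in the order of the genome, with 1 point per library and a bar at each group mean. The groups overlap for nearly all genes, the points of MT-ATP8 and MT-ND4L spread most, and the 3 PA points of MT-CO3 lie above its 6 other points.

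The main comparison, of cells given curcumin with cells on palmitic acid alone, found no mitochondrial gene past the threshold. In PA-Cur against PA, limma called 0 of the 15 measured genes at an adjusted p under 0.05, against a background of 1.96% of all genes tested, and 1 of the 15 had an unadjusted p under 0.05, against 14% of all genes. The median log2 fold change of the 13 mRNAs was -0.10, with 11 of the 13 below 0. Over all genes tested the median was -0.02, with 53.5% below 0. The largest differences were those of MT-CO3, at -0.23, and MT-ND6, at 0.15.

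In PA-Cur-Cu against PA the count was also 0 of 15, against 1.44% of all genes tested by limma, with 1 of the 15 at an unadjusted p under 0.05, against 13.5%. The median of the 13 mRNAs was -0.02, with 8 below 0, and that of all genes was -0.03, with 56.1% below 0. Both comparisons use the same 3 PA libraries, so their values are given side by side and not as separate evidence. PA-Cur-Cu against PA-Cur, which asks what copper adds to curcumin, gave 0 of 15, against 0% of all genes tested by limma. There, 0 of the 15 had an unadjusted p under 0.05, against 1.6% of all genes. The median of the 13 mRNAs was 0.05, with 3 below 0, and 54.2% of all genes were below 0.

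**Figure D2:**
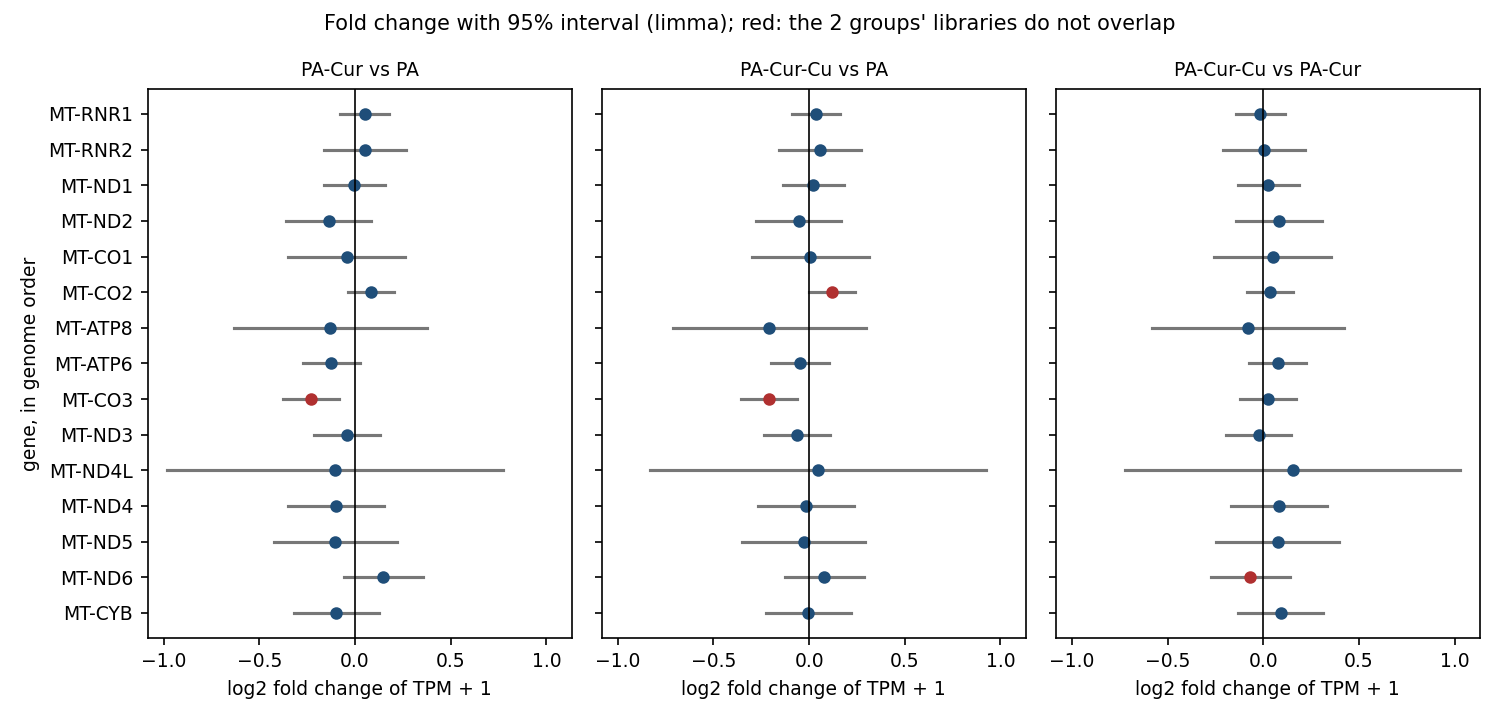
Log2 fold change of TPM + 1 with its 95% interval for each of the 15 genes in the 3 comparisons, from limma, with genes whose 2 groups share no range in red. The intervals of MT-CO3 lie below 0 in the first 2 panels, at -0.38 to -0.09 and -0.36 to -0.06, and those of MT-ND4L and MT-ATP8 are the widest.

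MT-CO3 (ENSG00000198938, chrM:9207-9990, plus strand) was the member that differed most regularly from the PA group. Its levels were 17465, 15377 and 15033 TPM in PA. They were 13203, 13559 and 13905 in PA-Cur, and 13755, 13839 and 13731 in PA-Cur-Cu. The 3 PA libraries were thus the 3 highest of the 9 and overlapped neither other group. The means were 15958 ± 1316, 13556 ± 351 and 13775 ± 57.1 (SD, n = 3 libraries each). In PA-Cur against PA the log2 fold change was -0.23 (SE 0.07, limma, unadjusted p = 0.00558, adjusted p = 0.122). In PA-Cur-Cu against PA it was -0.21 (SE 0.07, limma, unadjusted p = 0.0100, adjusted p = 0.173), and in PA-Cur-Cu against PA-Cur it was 0.02 (95% interval -0.12 to 0.17). MT-CO3 therefore missed the threshold in each. It passed in PA-Cur against PA without PA replicate 3, with an adjusted p of 0.0434 from limma, where 4.6% of all genes tested passed. It also passed with the length covariate described below, at 0.0142 and 0.0250 in the 2 comparisons with PA. Over all alternatives the adjusted p from limma ran from 0.0142 to 0.472 in PA-Cur against PA and from 0.0250 to 0.545 in PA-Cur-Cu against PA.

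Groups that do not overlap were few among the members. In PA-Cur against PA, MT-CO3 was the 1 gene of the 15, where 16.8% of all genes tested did not overlap. In PA-Cur-Cu against PA there were MT-CO3 and MT-CO2, where 19% of all genes did not overlap. In PA-Cur-Cu against PA-Cur there was MT-ND6, where 6.24% of all genes did not overlap. As shares of 15, these counts are close to or below the background.

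MT-CO2 (ENSG00000198712, chrM:7586-8269, plus strand) had the opposite order. Its levels were 19334, 18819.7 and 18025 TPM in PA, then 19249, 19868 and 20361 in PA-Cur, and 19918, 20319.8 and 20739 in PA-Cur-Cu. All PA-Cur-Cu libraries were above all PA libraries, and PA-Cur overlapped both. The log2 fold change was 0.12 in PA-Cur-Cu against PA (SE 0.05, limma, adjusted p = 0.381) and 0.08 in PA-Cur against PA (SE 0.05, adjusted p = 0.572). The former had an adjusted p of 0.0303 with the length covariate.

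Since MT-CO3 and MT-CO2 encode subunits of the same complex, their ratio within each library sets aside the scale of that library. It was chosen after its values were seen and has no test. MT-CO3 stood at 0.817 to 0.903 of MT-CO2 in PA, at 0.682 to 0.686 in PA-Cur and at 0.662 to 0.691 in PA-Cur-Cu. The means were 0.851 ± 0.0457, 0.684 ± 0.00188 and 0.678 ± 0.0145 (SD, n = 3 libraries each). MT-CO3 over MT-ATP6, its neighbour on the chromosome with no tRNA gene between them, ran from 1.86 to 2.01 in PA, 1.72 to 1.86 in PA-Cur and 1.69 to 1.81 in PA-Cur-Cu. MT-CO1 over MT-CO2 ran from 0.441 to 0.599 in PA, 0.435 to 0.542 in PA-Cur and 0.453 to 0.522 in PA-Cur-Cu, with full overlap.

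**Figure D3:**
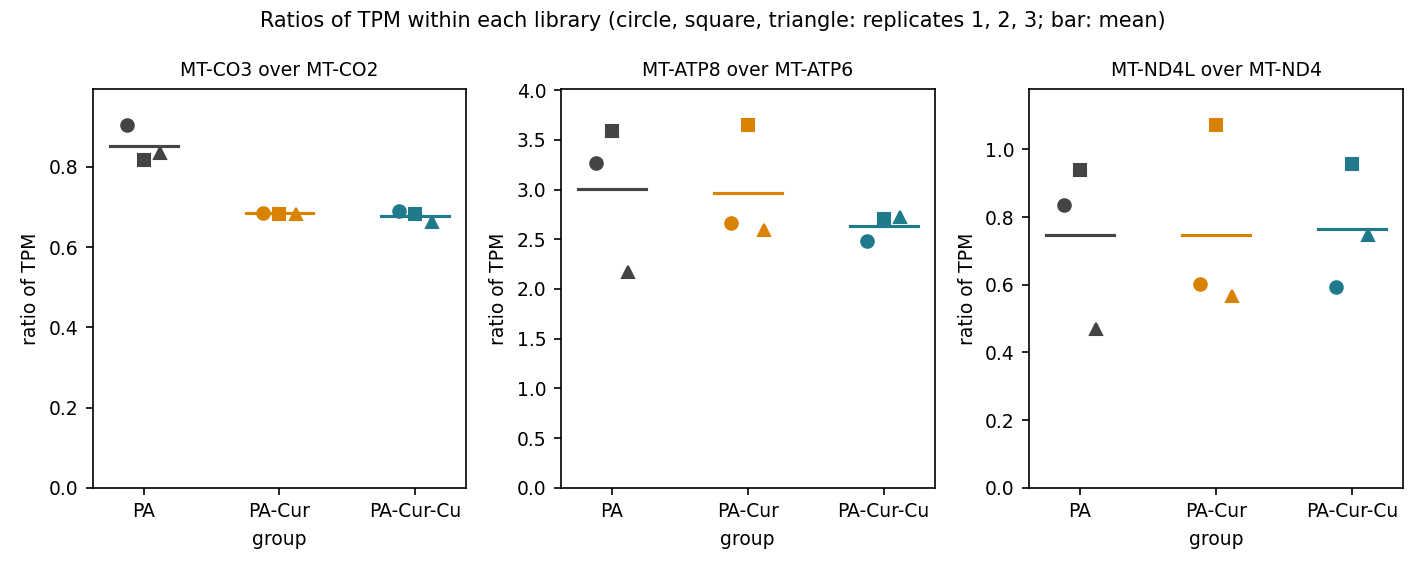
Ratio of TPM within each library for MT-CO3 over MT-CO2, MT-ATP8 over MT-ATP6 and MT-ND4L over MT-ND4, by group, with replicates 1, 2 and 3 as circles, squares and triangles and a bar at each mean. In the first panel the PA points, from 0.817 to 0.903, lie above all others, and in the other panels the groups overlap.

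The remaining gene of complex IV, MT-CO1 (chrM:5904-7445), had levels of 11581, 9792 and 7957.5 TPM in PA, 8664, 10766 and 8849 in PA-Cur, and 9019, 10602 and 9560.5 in PA-Cur-Cu. The PA libraries held both its highest and its lowest value. Its log2 fold changes against PA were -0.04 and 0.01, with limma SEs of 0.14.

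Complex V is represented by MT-ATP6 and MT-ATP8. MT-ATP6 (chrM:8527-9207) had levels of 8696, 8251 and 7666 TPM in PA, 7107, 7871 and 7604 in PA-Cur, and 7589.6, 8180.5 and 8029.65 in PA-Cur-Cu. Its groups overlapped. The log2 fold change was -0.12 in PA-Cur against PA (SE 0.07, limma, adjusted p = 0.471), and its adjusted p was 0.0408 with the length covariate. In PA-Cur-Cu against PA it was -0.05.

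MT-ATP8, the first frame printed above, had levels of 28450.2, 29578 and 16636.5 TPM in PA. They were 18949, 28701 and 19720.5 in PA-Cur and 18806.5, 22111 and 21883 in PA-Cur-Cu. The lowest library of all 9 and the highest were both in the PA group. Both genes are read from the same mRNA. MT-ATP8 stood at 2.17 to 3.58 times MT-ATP6 in PA, 2.59 to 3.65 times in PA-Cur and 2.48 to 2.73 times in PA-Cur-Cu. The part of the length scaling in these ratios was not tested. The log2 fold changes against PA were -0.13 in PA-Cur (95% interval -0.63 to 0.38) and -0.21 in PA-Cur-Cu (-0.71 to 0.30).

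Complex I is served by 7 mitochondrial genes, of which MT-ND4L, the second frame printed above, varied most. Its levels were 6661, 6290.4 and 2657 TPM in PA, 3524, 7199 and 3532 in PA-Cur, and 3724, 6559.9 and 5044 in PA-Cur-Cu. Each group thus held low and high libraries, over a 2.71-fold range. MT-ND4L stood at 0.469 to 1.07 times MT-ND4, which lies on the same mRNA. Its log2 fold change in PA-Cur against PA was -0.10, with a 95% interval of -0.98 to 0.77, which spans a wide range of changes in either direction.

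The other complex I genes on the heavy-strand RNA overlapped between all groups. MT-ND4 (chrM:10760-12137) had means of 6771 ± 1149, 6267 ± 432 and 6629 ± 309.8 TPM in PA, PA-Cur and PA-Cur-Cu (SD, n = 3). MT-ND1 (chrM:3307-4262) had 5079 ± 412, 5058 ± 213 and 5149.9 ± 225. MT-ND2 (chrM:4470-5511) had 4218 ± 560.4, 3817 ± 268 and 4039.8 ± 245. These proteins form the membrane arm of the complex, to which MT-ND3 and MT-ND5 also belong. MT-ND3 (chrM:10059-10404) had means of 6323 ± 595, 6139 ± 356 and 6030.2 ± 103 TPM. MT-ND5 (chrM:12337-14148) had 1499 ± 225, 1399 ± 251 and 1464 ± 139. The fold changes of these 5 genes against PA lay between -0.14 and 0.02 on the log2 scale, and the smallest adjusted p from limma was 0.618, for MT-ND2.

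MT-ND6 is the only mRNA gene here on the minus strand (chrM:14149-14673), and so the single mRNA of the light-strand transcript. Its levels were 2047, 2661 and 2600.3 TPM in PA, 2694, 2601 and 2746 in PA-Cur, and 2545, 2582 and 2543 in PA-Cur-Cu. PA replicate 1 was the lowest of the 9, and the PA-Cur libraries were all above the PA-Cur-Cu libraries. The log2 fold change was 0.15 in PA-Cur against PA (SE 0.09, limma, adjusted p = 0.549) and -0.07 in PA-Cur-Cu against PA-Cur (SE 0.09, adjusted p = 1).

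The balance of the strands was taken as the log2 ratio of MT-ND6 to the sum of the 12 other mRNAs. That sum includes MT-ATP8 and MT-ND4L, which varied most, and the ratio was not computed without them. The part of the kit for polyadenylated RNA in this ratio was not tested. It was -5.88, -5.43 and -5.15 in PA, -5.14, -5.45 and -5.18 in PA-Cur, and -5.26, -5.39 and -5.37 in PA-Cur-Cu. The groups overlapped, and the exact permutation test over the 3 groups gave p = 0.550 (0.733 after Benjamini-Hochberg adjustment over 4 such values). The pairwise exact tests gave p = 0.6, 0.7 and 0.4, where the smallest that 3 against 3 allows is 0.1.

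Complex III has a single mitochondrial gene, MT-CYB (chrM:14747-15887), which encodes cytochrome b. Its means were 2619 ± 385, 2433 ± 131 and 2592 ± 117 TPM in PA, PA-Cur and PA-Cur-Cu (SD, n = 3), and the groups overlapped. As a share of the TPM of the 13 mRNAs, complex III held 2.34%, 2.32% and 2.44% in the 3 groups. Complex I held 28.3%, 28.6% and 29.1%, complex IV 40.0%, 40.8% and 41.3%, and complex V 29.4%, 28.3% and 27.1%. These means differed by less than the spread between libraries for complexes IV and V, whose SDs within PA were 3.01 and 3.34 percentage points.

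The rRNAs, MT-RNR1 of the small ribosomal subunit (chrM:648-1601) and MT-RNR2 of the large (chrM:1671-3229), were steadier than most mRNAs. MT-RNR1 ranged from 1791 to 1975 TPM over all libraries, with group means of 1854 ± 71.4, 1919.8 ± 72.7 and 1900.05 ± 69.1 (SD, n = 3). Its coefficient of variation over the 9 libraries, 3.60%, was the lowest of the 15 genes. MT-RNR2 had levels of 5252, 5271 and 4188 TPM in PA, 4889.6, 5464 and 4832 in PA-Cur, and 4894, 5346 and 4975 in PA-Cur-Cu. PA replicate 3 was its lowest library. In cells the rRNAs far outnumber the mRNAs, and in these libraries, made for polyadenylated RNA, they held less of the TPM than the mRNAs.

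Together the rRNAs made up 5.42%, 5.70% and 6.07% of mitochondrial TPM in PA, 6.56%, 5.999% and 6.13% in PA-Cur, and 6.34%, 6.08% and 6.07% in PA-Cur-Cu. All PA-Cur-Cu libraries were above all PA libraries by a narrow margin, and PA-Cur overlapped PA. The difference from PA was 0.50 percentage points in PA-Cur (exact permutation p = 0.2) and 0.43 in PA-Cur-Cu (exact permutation p = 0.1, the smallest possible). After adjustment over the 12 pairwise tests of the 4 values both were 0.9, and the exact test over 3 groups gave p = 0.121 (0.486 adjusted).

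Mitochondrial genes held 12.98%, 12.5% and 10.1% of all TPM in the PA libraries, 10.4%, 12.4% and 10.9% in PA-Cur, and 10.7%, 11.8% and 11.4% in PA-Cur-Cu. The PA group spanned the whole range of the other groups. The means were 11.8% ± 1.55, 11.2% ± 1.03 and 11.3% ± 0.570 (SD, n = 3). The exact permutation p was 0.7 for PA-Cur against PA, 0.6 for PA-Cur-Cu against PA and 0.9 for PA-Cur-Cu against PA-Cur, and 0.771 over the 3 groups.

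Much of that spread between libraries lay in the MT-ATP8 and MT-ND4L genes. They held 1.93% to 3.59% of all TPM, and 19.1% to 28.97% of mitochondrial TPM. Without them the mitochondrial share ranged from 8.15% to 9.47%, with means of 8.84% ± 0.663, 8.51% ± 0.311 and 8.72% ± 0.255 (SD, n = 3).

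**Figure D4:**
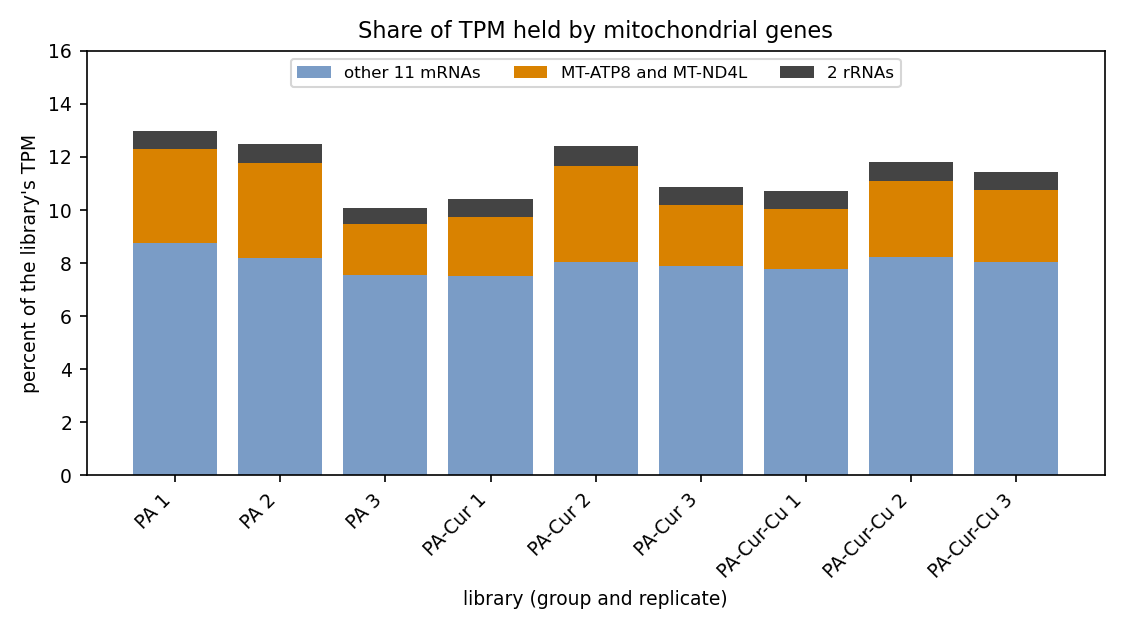
Percent of each library's TPM held by the 11 other mitochondrial mRNAs, by MT-ATP8 with MT-ND4L, and by the 2 rRNAs, as stacked bars for the 9 libraries. The middle part varies from 1.93% to 3.59% and the total from 10.1% to 12.98%, with the PA libraries holding both ends of the total.

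Libraries also differed in a way that runs with transcript length, and the PA libraries spanned it. Among nuclear genes averaging 20 TPM or more, those of 4000 to 8000 bases had a median deviation from their own 9-library mean of 0.18 on the log2 scale in PA replicate 1 and of -0.16 in PA replicate 3. Those of 1500 to 2500 bases had 0.01 and -0.01, those of 700 to 1500 bases -0.13 and 0.10, and those of at most 350 bases, 36 genes, -0.29 and 0.25. Among the mitochondrial genes, PA replicate 1 was the highest library for 7 of 15 and PA replicate 3 the lowest for 8 of 15.

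Most of the longer mitochondrial genes differed between these libraries in the direction of nuclear genes of 2500 bases or more, not of nuclear genes of their own length. Length here is that of a gene's longest annotated transcript. Whether the nuclear genes expressed shorter transcripts was not tested. Of the 8 members of at least 950 bases, 7 were above their own mean in PA replicate 1, 8 in PA-Cur replicate 2 and 7 in PA-Cur-Cu replicate 2. By contrast, 1 of the 8 was above it in PA replicate 3, in PA-Cur replicate 1 and in PA-Cur replicate 3, and 0 were in PA-Cur-Cu replicate 1. MT-ND4, of 1378 bases, deviated by 0.29 in PA replicate 1 and by -0.21 in PA replicate 3, where nuclear genes of 700 to 1500 bases deviated by -0.13 and 0.10. MT-ND1, MT-ND2 and MT-CYB, which belong to the same class of length, had 0.12, 0.24 and 0.25 in PA replicate 1 and -0.11, -0.14 and -0.18 in PA replicate 3. MT-CO1, of 1542 bases, deviated by 0.27 and -0.27. The exception in these PA libraries was MT-RNR1, of 954 bases, which deviated by -0.08 and 0.03, in the direction of nuclear genes of its own length. This did not hold in every library. In PA-Cur replicates 2 and 3 it deviated by 0.06 and -0.04, where nuclear genes of 700 to 1500 bases had -0.07 and 0.06.

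MT-ATP8 and MT-ND4L, the shortest, likewise ran against nuclear genes of their own length. They deviated by 0.35 and 0.49 in PA replicate 1, where short nuclear genes were low, and by -0.42 and -0.84 in PA replicate 3, where these were high. MT-ND3, of similar length, deviated by -0.13 and 0.10 in those libraries, and MT-ND6 by -0.32 and 0.03. MT-CO3, at 0.28, 0.10 and 0.06, was above its mean in all 3 PA libraries and below it in all 6 others.

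**Figure D5:**
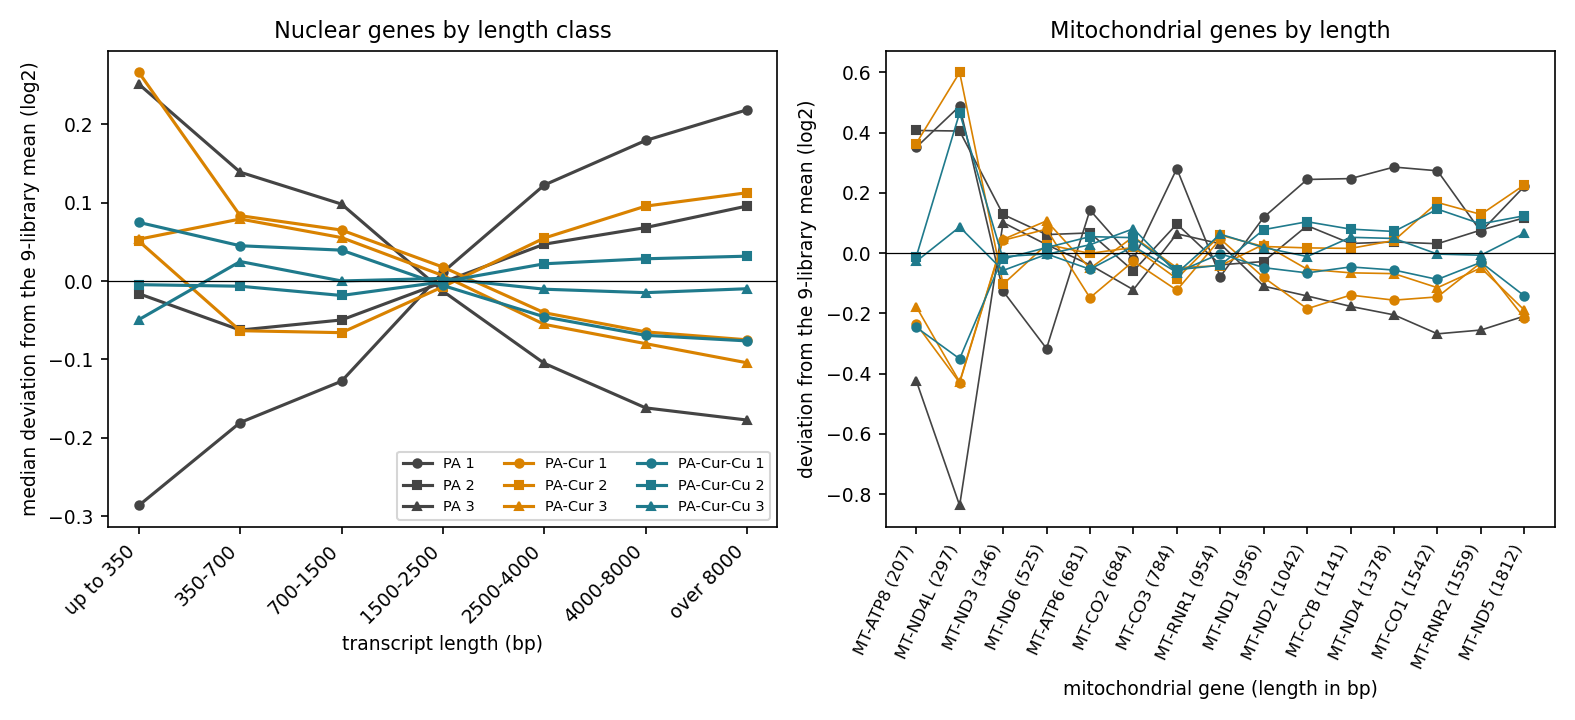
Left, median log2 deviation of nuclear genes from their 9-library mean by class of transcript length, with 1 line per library. Right, the same deviation for each of the 15 mitochondrial genes in order of length: most genes of 950 bases or more are high in PA replicate 1 and low in PA replicate 3, and MT-ATP8 and MT-ND4L are high in PA replicates 1 and 2 and low in PA replicate 3.

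Each library's slope of deviation on length, over 13021 nuclear genes with a known length, was 0.05, 0.03 and -0.08 per doubling of length in PA. It was -0.03, 0.06 and -0.03 in PA-Cur, and -0.03, 0.01 and 0.01 in PA-Cur-Cu. The groups overlapped in it. With this slope as a covariate in limma, an alternative chosen after seeing the data, 2 of the 15 genes passed in PA-Cur against PA, MT-CO3 and MT-ATP6, both lower, against 12.5% of all genes tested. In PA-Cur-Cu against PA 2 passed, MT-CO3 lower and MT-CO2 higher, against 11.5% of all genes. That model called many more genes of all kinds, 1684 against 264 in PA-Cur against PA. A share of 2 in 15 is thus near its background.

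The nucleus holds old copies of mitochondrial sequence, and 402 genes of the table are named as such. Of these, 341 were listed at 0 in every library, and 6 had a mean of at least 1 TPM. The highest was MTATP6P1 (ENSG00000248527, chr1:633696-634376, plus strand), a copy of MT-ATP6. It differs from MT-ATP6 at 10 of 681 bases. The stretch of 60 bases printed here was chosen as one with the most differences, and it holds 3 of the 10. This stretch lies at chrM:8642-8701 and chr1:633811-633870 on the plus strand of GRCh38, with the differing bases in capitals.
MT-ATP6: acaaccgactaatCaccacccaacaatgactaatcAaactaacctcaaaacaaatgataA
MTATP6P1: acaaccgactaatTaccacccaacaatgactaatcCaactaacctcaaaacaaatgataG
A read from between such bases matches both genes, so how these 2 values were divided is uncertain. The deposited level of MTATP6P1 averaged 1087 TPM, 13.8% of that of MT-ATP6. It was 1469.9, 1130.5 and 1061 TPM in PA, 943, 986 and 996 in PA-Cur, and 1037, 1073 and 1083 in PA-Cur-Cu. PA replicate 1 was far above the rest, and PA and PA-Cur did not overlap. Its log2 fold change in PA-Cur against PA was -0.31 (SE 0.11, limma, adjusted p = 0.204). MTCO1P12, a copy of MT-CO1, followed with a mean of 125 TPM. The others, MTND6P3, MTND6P35, MTND2P28 and MTND1P23, had means of 22.1, 10.9, 6.67 and 2.79 TPM. MT-CO3 has no copy among those with a mean of at least 1 TPM. Adding all copies to their mitochondrial genes left the count of members called at 0 in each comparison.

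The nuclear genes that serve mitochondrial DNA were examined in the same fit. Over all genes tested, 1.96% passed in PA-Cur against PA and 1.44% in PA-Cur-Cu against PA, and 14% and 13.5% had an unadjusted p under 0.05. Of the 19 genes of mitochondrial DNA replication and transcription, 0 passed in any comparison by limma, with 2 at an unadjusted p under 0.05 in PA-Cur against PA and 1 in PA-Cur-Cu against PA. With median-of-ratios scaling, 1 of the 19 passed in PA-Cur-Cu against PA, where 256 of all genes tested passed, against 194 without that scaling. TFAM, which packages the DNA and starts its transcription, had means of 28.7 ± 7.37, 25.6 ± 6.75 and 26.7 ± 1.97 TPM in PA, PA-Cur and PA-Cur-Cu (SD, n = 3). POLRMT, the mitochondrial RNA polymerase, had 77.4 ± 18.3, 69.7 ± 10.4 and 71.2 ± 3.64. The largest differences were in the MTERF3 and MTERF2 genes, of the family of mitochondrial termination factors. MTERF3 had log2 fold changes of 0.32 in PA-Cur and 0.42 in PA-Cur-Cu against PA (limma, adjusted p = 0.159 and 0.0771), and MTERF2 had 0.39 and 0.31.

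Of the 37 genes of mitochondrial RNA processing, modification and turnover, 0 passed in limma, with 3 at an unadjusted p under 0.05 in each comparison with PA. SUPV3L1 and PNPT1 encode the helicase and the exonuclease of the mitochondrial RNA degradosome. SUPV3L1 had means of 182.6 ± 18.0, 138 ± 14.0 and 143 ± 6.19 TPM in PA, PA-Cur and PA-Cur-Cu, with log2 fold changes against PA of -0.40 and -0.34 (limma, adjusted p = 0.0722 and 0.125). PNPT1 had -0.40 and -0.36 (limma, adjusted p = 0.375 and 0.426). TFB1M, which methylates the small rRNA, had 0.44 in PA-Cur against PA (limma, adjusted p = 0.282). LRPPRC, which stabilises mitochondrial mRNAs, had 0.14 and 0.16. FASTKD5, which is needed to cut the junctions that no tRNA marks, such as that of MT-ATP6 and MT-CO3, had 0.10 and 0.10.

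Of 8 nuclear regulators of mitochondrial biogenesis 7 were measured, and 0 passed in limma, with 1 at an unadjusted p under 0.05 in each comparison with PA. ESRRA, a nuclear receptor that drives respiratory genes, had 0.27 and 0.19 (limma, adjusted p = 0.178 and 0.353). PPRC1, a coactivator of the same family as PPARGC1A, had -0.19 in PA-Cur against PA, and PPARGC1A had -0.30 in PA-Cur-Cu against PA. Of 82 mitochondrial ribosomal proteins 0 passed in limma, with 3 and 4 at an unadjusted p under 0.05 against PA. Their medians were 0.04 in both, and MRPL41 had the largest differences, 0.32 and 0.35. Next came MRPL34 in PA-Cur, at 0.23, and MRPS14 in PA-Cur-Cu, at 0.31. Of the 15 translation factors 0 passed in limma and 0 had an unadjusted p under 0.05 against PA, and the largest differences were 0.19 for MTFMT and -0.17 for GUF1 in PA-Cur, and -0.23 for GUF1 and -0.20 for MRRF in PA-Cur-Cu. In PA-Cur-Cu against PA-Cur, 0 genes of these lists or of the nuclear subunit lists passed in limma or had an unadjusted p under 0.05.

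The nuclear partners of the mitochondrial subunits lay on the higher side of PA in both treated groups. In complex I, 34 of 37 nuclear subunit genes had a fold change above 0 in PA-Cur against PA and 30 in PA-Cur-Cu against PA, with medians of 0.13 and 0.11. The medians were 0.08 and 0.14 over the 9 genes of complex III, 0.23 and 0.21 over the 11 of complex IV, and 0.16 and 0.12 over the 17 of complex V. For all genes they were -0.02 and -0.03. In limma, 6, 1, 5 and 4 genes of complexes I, III, IV and V had an unadjusted p under 0.05 in PA-Cur against PA. In PA-Cur-Cu against PA the counts were 9, 2, 5 and 3. Of all genes tested, 14% and 13.5% did. Libraries also differed with transcript length, as given above. Counts from the fit with the length covariate, which was chosen after seeing the data, are given below. The medians here come from the fit without it, and the part of length in them is not given. Without PA replicate 1, the medians in PA-Cur against PA were 0.07, 0.03, 0.16 and 0.05 for complexes I, III, IV and V, beside 0.03 for all genes. In PA-Cur-Cu against PA they were 0.08, 0.04, 0.13 and 0.03, beside 0.02 for all genes. Without PA replicate 3 the medians moved the other way. In the same order of complexes they were 0.18, 0.20, 0.31 and 0.24 in PA-Cur against PA, beside -0.09 for all genes. In PA-Cur-Cu against PA they were then 0.20, 0.18, 0.33 and 0.21, beside -0.10.

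Across the nuclear lists, 1 gene passed, where 1.96% of all genes tested did in PA-Cur against PA. NDUFB3, an accessory subunit of complex I, had levels of 157, 181 and 159 TPM in PA, 207, 207 and 212 in PA-Cur, and 206, 199 and 187 in PA-Cur-Cu. It rose in PA-Cur against PA, by 0.33 on the log2 scale (SE 0.07, limma, adjusted p = 0.0498), and had 0.25 in PA-Cur-Cu (adjusted p = 0.127). Its call was lost in 15 of 20 alternatives, with adjusted p from limma between 0.0117 and 0.191. Without PA replicate 3, 4, 1, 3 and 1 nuclear genes of complexes I, III, IV and V passed as higher in PA-Cur against PA, with 1 ribosomal protein gene higher and 1 RNA processing gene lower. The same counts in PA-Cur-Cu against PA were 1, 1, 2 and 1, again with 1 ribosomal protein gene higher and 1 RNA processing gene lower. Of all genes tested, 4.6% and 3.92% passed without that library. Without PA replicate 1, 1 ribosomal protein gene passed as lower in PA-Cur-Cu against PA, where 101 of 13443 genes tested passed in either direction. The other large differences did not pass in the fit to all 9 libraries. In complex I, NDUFB2 had 0.30 and 0.31 against PA, and NDUFA2 had 0.28 in PA-Cur-Cu. In complex III, UQCRH had 0.20 and 0.22, UQCRC2 had 0.25 in PA-Cur and UQCRFS1 had 0.21 in PA-Cur-Cu. COX7A2 and COX7C of complex IV had 0.33 and 0.31 in PA-Cur and 0.27 and 0.32 in PA-Cur-Cu. In complex V, ATP5MC3 had 0.25 and 0.26, and ATP5F1D, of the central stalk of the enzyme, had -0.29 and -0.24. With the length covariate, 10, 2, 7 and 5 nuclear genes of complexes I, III, IV and V passed as higher in PA-Cur against PA, and 8, 4, 5 and 4 in PA-Cur-Cu against PA. Of all genes tested, 5.39% and 5.2% passed as higher with that covariate.

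Mitochondrial and nuclear subunit RNAs were compared as the log2 ratio of the summed TPM of the 13 mitochondrial mRNAs to that of 74 nuclear subunit genes. It was 2.39, 2.18 and 1.69 in PA, 1.71, 2.09 and 1.78 in PA-Cur, and 1.77, 1.99 and 1.91 in PA-Cur-Cu. The PA group again held both ends. The means were 2.09 ± 0.36, 1.86 ± 0.21 and 1.89 ± 0.11 (SD, n = 3). The exact permutation p was 0.5 for each treated group against PA, 0.9 between them and 0.529 over the 3 groups (0.733 adjusted over the 4 values). By complex, the ratio was highest for complex IV, with means of 3.16, 2.90 and 2.94, and lowest for complex III, with 0.01, -0.19 and -0.10.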

How the data were processed

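Messenger RNA was measured in 9 libraries of cells labelled HepG2, 3 per treatment. The authors deposited TPM values (a transcript abundance scaled by gene length and to the same total in every library) for 62703 genes. Per the submitters' processing notes, the build was GRCh38.p13 and the tools included RSEM 1.3.3 and HISAT2 2.1.0, and the annotation is not given in the sources used here. TPM keeps no depth, so the reads behind a value are unknown and no counting interval is given. Groups came from the sample titles. The labels do not say that replicates were separate cultures, so p-values reflect nothing beyond the spread of these libraries, and it may be technical.

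All rows whose symbol starts with MT- were taken. The TPM values that the authors deposited were put on the log2(TPM + 1) scale, and 13443 genes averaging 1 TPM or more entered 1 model in limma 3.58.1 (R 4.3.3), with a mean per group and a variance trend. P-values are two-sided, and Benjamini-Hochberg adjustment ran over every gene tested, with a threshold of 0.05. Fold changes on this scale understate those of low genes. The fitting steps were tested on simulated data. Per-library shares and ratios were compared by exact permutation tests. Gene positions, lengths and sequences came from GENCODE release 29 on GRCh38, matched by Ensembl identifier. The length of a gene was taken as that of its longest transcript there.

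The 15 mRNA and rRNA genes are named with their values, and the tRNA genes by their count. Of each pathway list, members past the threshold and the 2 largest changes are named, and other genes were named for their role. Nuclear copies averaging 1 TPM or more are named. The members and lists were chosen with earlier results of these data known.

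The alternatives were pseudocounts of 0.1 and 5, a filter at 5 TPM, no filter, scaling to nuclear TPM or by median of ratios, adding nuclear copies to their mitochondrial gene, the 2 compared groups alone, a fit with no variance trend, a replicate block, and each library left out in turn. A covariate for each library's dependence on transcript length, and sums without MT-ATP8 and MT-ND4L, were chosen after seeing the data.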

Additional observations from a re-analysis of the deposited data

How the results depend on the processing

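No mitochondrial gene passed the threshold in any comparison under the pseudocounts, filters, scalings, 2-group fits, added nuclear copies, the replicate block or the fit with no variance trend. With the length covariate, 2 genes passed in PA-Cur against PA and 2 in PA-Cur-Cu against PA. Leaving out a library gave 0 to 1 gene in PA-Cur against PA, and the 1 gene was MT-CO3 without PA replicate 3. Of the 45 pairs of a gene and a comparison, 25 changed sign when some library was left out and 5 changed sign under another setting, where no fold change exceeded 0.03 in size. MT-CO3 changed sign in none of them.

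On leaving out a library, the differences that changed sign were these. The mitochondrial share of TPM differed by -1.40 to 0.047 percentage points between PA-Cur-Cu and PA, and by -0.31 to 0.67 between PA-Cur-Cu and PA-Cur. The MT-ND6 log2 ratio differed by -0.051 to 0.32 between PA-Cur-Cu and PA. Between PA-Cur-Cu and PA-Cur, the mitochondrial to nuclear log2 ratio differed by -0.044 to 0.15 and the rRNA share by -0.19 to 0.10 percentage points. Other differences kept their sign and moved widely. Between PA-Cur and PA, the mitochondrial share differed by -1.50 percentage points without PA replicate 3 and by -0.045 without PA replicate 1. In the same order of libraries, the MT-ND6 log2 ratio differed by 0.40 and 0.034, and the mitochondrial to nuclear log2 ratio by -0.42 and -0.076. The latter differed by -0.39 and -0.043 between PA-Cur-Cu and PA.

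In PA-Cur against PA, 264 of all genes tested were called. The number was 35 with the 2 groups alone, 104 with no filter, 130 with no variance trend, 177 with the replicate block, 95 without PA replicate 1, 75 without PA replicate 2, 619 without PA replicate 3, and 1684 with the length covariate. Replicate numbers were not taken to pair the samples. Same-numbered samples correlated at -0.27 to 0.25 in their deviations, and 2 of 9 pairs were over 0.1. A sample correlated best with its own number in 9 of 18 cases, with 3 numbers to choose from in each. These values do not settle whether the numbers pair the samples. In the fit with the replicate block, 0 mitochondrial genes passed. For the mitochondrial share, pairing same-numbered libraries leaves the difference of -0.61 percentage points between PA-Cur and PA unchanged by construction.

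TPM gives no depth, so whether sequencing depth limits any of these comparisons was not tested. With 3 libraries per group, an exact permutation test of a single value cannot go below 0.1.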
